A study of Mus musculus with 3 samples.

Results

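Proximal luminal epithelial cells line the prostate ducts near the urethra. They carry luminal keratins but make little of the secretory protein that fills the distal lobes, and in mouse prostate they are known by Psca, a small cell-surface protein anchored by a lipid tail, by the stratified-epithelium keratin Krt4 and by Ly6d. Cells of this kind are also known to persist when androgen is low and to hold progenitor capacity in culture and grafts. Members were selected on measured expression, from droplet single-cell RNA sequencing of whole mouse prostate as barcodes with at least 5 unique molecular identifiers (UMIs) of Psca and Krt4 together, making at least 0.1% of the barcode's UMIs, and fewer than 5 UMIs of the basal keratins Krt5 and Krt14. A barcode also needed at least 500 genes, at most 15% mitochondrial UMIs and less than 10% of its UMIs from 7 seminal vesicle secretory genes (Svs1, Svs2, Svs3a, Svs3b, Svs4, Svs5 and Svs6). This left 392 of 32139 deposited barcodes. They were 50 barcodes in the knockout, 191 in heterozygote 1 and 151 in heterozygote 2, and values below are given in that order unless stated.

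The study compared prostates of Srd5a2 knockout mice (Srd5a2-/-, 1 library) with prostates of Srd5a2 heterozygotes (Srd5a2+/-, 2 libraries), all C57BL6 and labelled as 12 to 15 weeks old. Srd5a2 is the gene of the type 2 5α-reductase, the enzyme that makes dihydrotestosterone from testosterone. The controls also carry 1 disrupted allele, and no wild-type library was analysed here. Digestion took 2 h at 37 °C, with 10 µM rock inhibitor and 1 nmol dihydrotestosterone present, so all 3 libraries were exposed to androgen before RNA capture. How many animals went into a library is not given in the sources used here, so p-values measure the spread between these libraries, which may be technical in part. Among the proximal barcodes, Srd5a2 itself had 0 UMIs in the knockout and 1 and 4 UMIs in the heterozygotes. The floor of 3 UMIs is 6.48 CPM (UMIs scaled to the class total of a library, as counts-per-million values are) in that knockout sum, above the 0.609 and 3.17 CPM of the heterozygotes, so the targeted gene could not be told apart between genotypes in these cells. Basal barcodes held 4, 12 and 10 Srd5a2 UMIs, or 0.698, 7.85 and 4.54 CPM.

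Depth per proximal barcode was similar in the 3 libraries, while the secretory RNA found in them was not. The median barcode held 6523, 5692 and 7618 UMIs, and the class summed to 463089, 1642366 and 1263665 UMIs. The 7 seminal vesicle genes took a median of 2.60%, 0.230% and 0.427% of a proximal barcode's UMIs, and a list of 16 prostate secretory genes took 0.198%, 0.325% and 0.870%. Basal barcodes, which are not secretory cells, showed the same order of libraries for both lists, with 4.12%, 0.402% and 0.829% for the seminal vesicle genes and 0.229%, 0.521% and 1.43% for the prostate secretory list. Mitochondrial UMIs were a median of 3.39%, 3.44% and 5.97%, and the nuclear RNA Malat1 took 3.51%, 2.42% and 0.574%. No barcode sequence of a proximal cell was shared between libraries, although 15, 57 and 16 barcodes in all were shared by the 3 pairs of libraries.

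Proximal barcodes were scarcest in the knockout library, but the 2 heterozygote libraries also differed from each other. They were 0.501% (95% Clopper-Pearson interval 0.372% to 0.660%) of 9983 quality-filtered barcodes in the knockout, 4.05% (3.50% to 4.65%) of 4718 in heterozygote 1 and 1.43% (1.21% to 1.67%) of 10587 in heterozygote 2. Intervals and floors here cover counting error only, since barcodes of 1 library are not replicates. With 1 library against 2 the smallest exact permutation p is 0.33, so no test of the share was made. Among the barcodes gated as proximal, secretory luminal, basal, or positive for both proximal and basal genes, the share was 2.41% (1.79% to 3.16%), 7.50% (6.51% to 8.60%) and 3.17% (2.69% to 3.71%). On quality-filtered barcodes with under 10% of UMIs from the 7 seminal vesicle genes, the only ones that could be members, it was 0.875% of 5714, 4.84% of 3944 and 1.72% of 8797. The knockout was lowest on all 3 bases, but not in every setting. It was not lowest with members limited to under 1% prostate secretory UMIs, a limit set after the data were seen. There the share of gated epithelial barcodes was 2.36% in the knockout and 1.87% in heterozygote 2. With at least 10 Psca and Krt4 UMIs the knockout was still lowest, at 1.85% (1.31% to 2.53%) against 2.11% (1.71% to 2.56%) in heterozygote 2, with overlapping intervals. Few barcodes sat at the edges of the rule: 3, 12 and 13 members held only 5 or 6 UMIs of Psca and Krt4, and 0, 10 and 11 barcodes just outside held 3 or 4. A further 5, 9 and 54 barcodes had at least 5 such UMIs but less than 0.1% of their total.

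**Figure D1:**
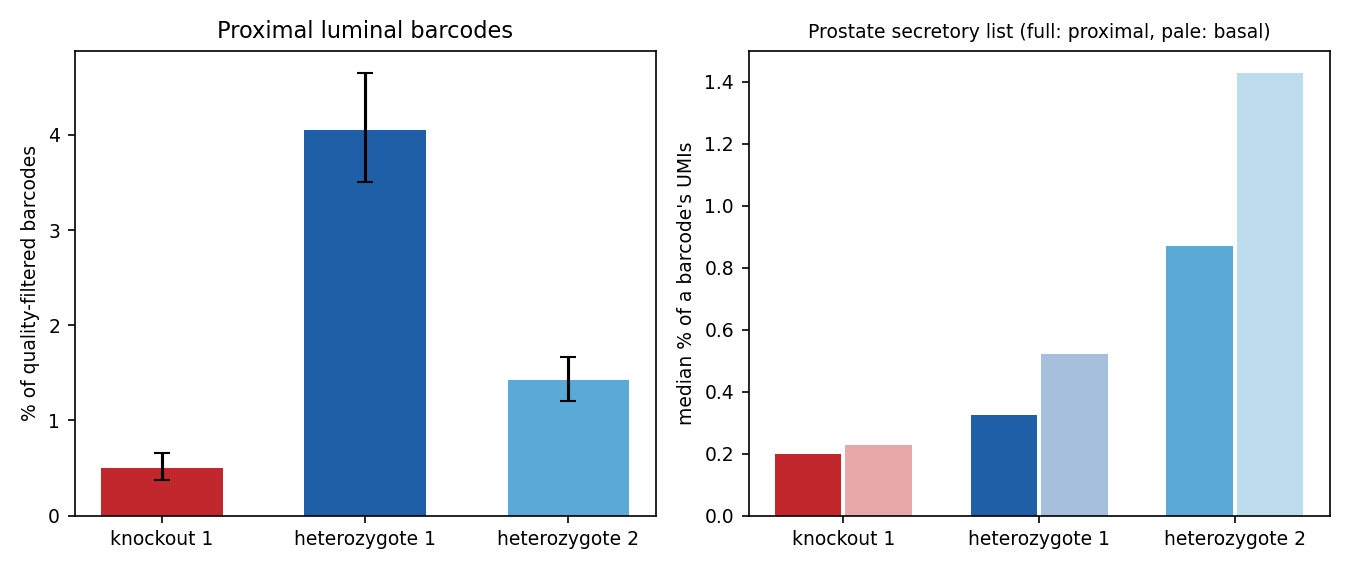
Left, proximal luminal barcodes as a percentage of quality-filtered barcodes in each library, with the 95% Clopper-Pearson interval as the bar. Right, the median percentage of UMIs from the 16 prostate secretory genes in proximal (full colour) and basal (pale) barcodes. The share was 0.501%, 4.05% and 1.43%, and secretory RNA rose from the knockout to heterozygote 1 to heterozygote 2 in both classes.

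The gate rested mostly on Psca. Psca stood at 4638, 5803 and 3694 CPM and Krt4 at 743, 625 and 679 CPM, as the rule requires, with 7, 42 and 22 members lacking any Krt4 UMI and 1, 0 and 2 lacking Psca. Other known markers of proximal cells, which the rule did not read, were high. Ly6d, a lipid-anchored surface protein of the same family as Psca, was at 853, 838 and 421 CPM in proximal barcodes and at 1.70, 4.31 and 4.44 CPM in secretory luminal barcodes. Krt7, a keratin of simple duct epithelium, was at 667, 666 and 495 CPM against 1.76, 7.52 and 6.68. In both genes the lowest proximal library stood at least 20 times above the highest secretory library, and basal barcodes lay between. Immune markers were near 0 in the members and ionocyte markers were low, while some stromal markers were not. The 5 macrophage markers summed to 0.0, 4.26 and 3.96 CPM and the 5 T and NK cell markers to 0.0, 3.04 and 0.0. The 5 ionocyte markers summed to 6.48, 3.65 and 16.6 CPM, above the 2.45, 2.94 and 9.45 CPM of secretory barcodes. Of these, Foxi1 and Ascl3 had no UMI in any library, while Cftr was called higher than in secretory barcodes, 1 of 3 tested. The 6 fibroblast markers summed to 75.6, 64.5 and 80.7 CPM, close to the 67.1, 76.6 and 85.2 CPM of secretory barcodes. The 5 smooth muscle markers reached 358 CPM in heterozygote 2, against 97.2 and 111 CPM in the other libraries, and stood above secretory barcodes in each library (63.3, 31.2 and 86.8).

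**Figure D2:**
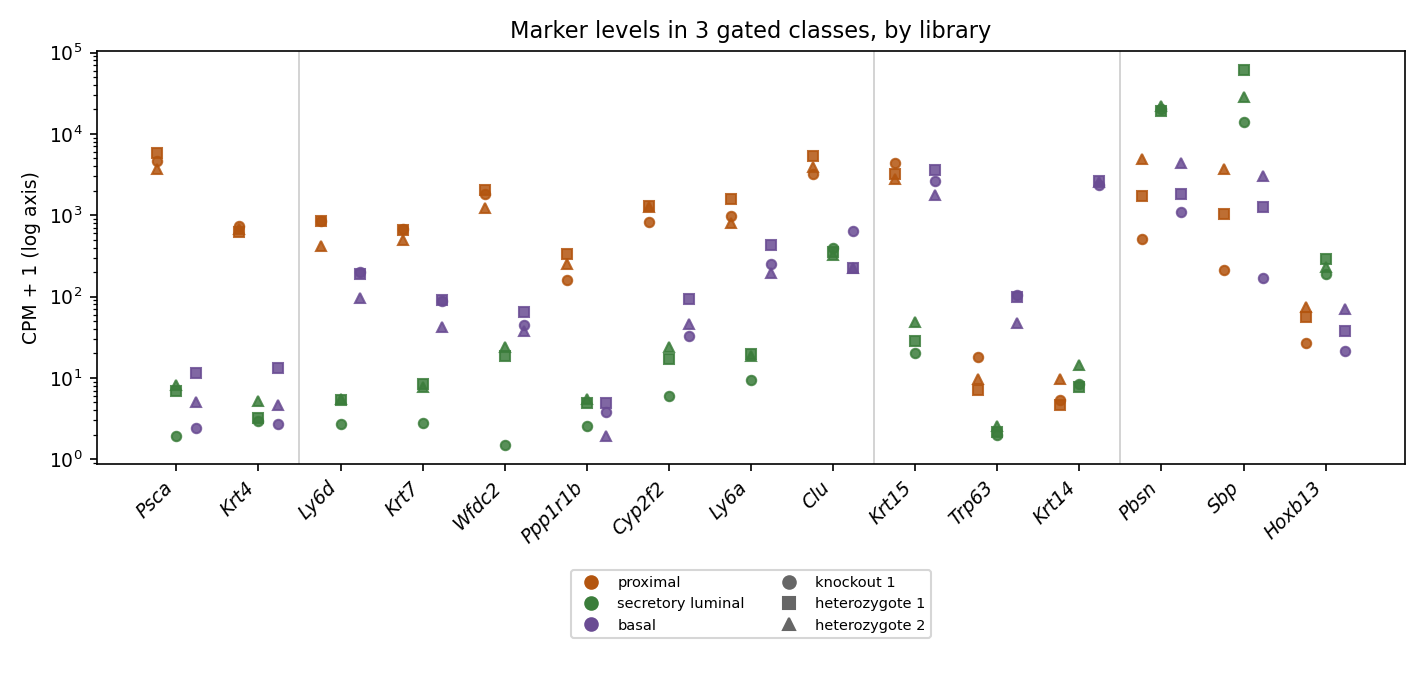
CPM + 1 on a log axis for marker genes in proximal (brown), secretory luminal (green) and basal (purple) barcodes, with one symbol per library. Psca, Krt4, Krt14, Pbsn and Sbp were read by a gate. Ly6d, Krt7, Wfdc2, Ppp1r1b and Cyp2f2 are highest in the proximal class in all 3 libraries, Krt15 overlaps with basal barcodes, and Hoxb13 is highest in secretory barcodes.

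Against secretory luminal barcodes of the same libraries, the proximal class was marked by surface proteins, barrier proteins, chemokines and some detoxifying enzymes. The comparison used UMIs summed per library and class with the library as a block (edgeR's quasi-likelihood test, Benjamini-Hochberg adjusted p under 0.05, 2 residual degrees of freedom), and genes read by either gate were not tested. Since both classes were gated on expression, the counts describe the 2 gates and are no independent test of their identity. Of 12918 genes tested, 46.2% passed, 20.1% higher and 26.1% lower in proximal barcodes. The list counts between these 2 classes below are to be read beside these shares. The 12 genes named by size, at 50 CPM or more in every library, were Lypd2, Gsdmc2, Ivl, Clca1, Gsdmc3, Ly6d, Cxcl15, Wfdc2, Mall, Aldh3a1, S100a6 and Fgfr3, with log2 fold changes from 8.68 ± 0.34 (SE) for Lypd2 to 6.71 ± 0.25 for Fgfr3. Lypd2, another lipid-anchored protein of the Ly6 family, was at 86.4, 79.2 and 57.0 CPM in proximal barcodes, at 0.0, 0.138 and 0.171 in secretory ones and had no UMI in basal ones. Clca1, a secreted regulator of chloride channels in mucous epithelia, was at 108, 126 and 90.2 CPM against 0.0628, 0.275 and 0.384. The pore-forming gasdermins Gsdmc2 (188, 162 and 158 CPM) and Gsdmc3 (162, 174 and 171 CPM) were below 1 CPM in every secretory sum, and as near-identical neighbours they may share reads. The 3 libraries did not overlap between the classes for any of these 12 genes. Since they were named by size, this separation is no added support.

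Lypd2, Ly6d, Ly6k, Ly6a and the gate gene Psca lie in 1 stretch of chromosome 15 in mm10 (GENCODE vM21). Psca is at chr15:74714839-74717069 on the plus strand, Lypd2 at chr15:74732247-74734329, Ly6d at chr15:74762056-74763620, Ly6k at chr15:74796874-74799986 and Ly6a at chr15:74994877-74998031, the last 4 on the minus strand. In the list of 20 Ly6 family genes, 9 of 12 tested were higher in proximal barcodes and 1 was lower, with a median log2 fold change of 3.83 against -0.13 over all genes tested. Of all genes tested, 20.1% were higher and 26.1% lower. Ly6a (Sca-1), an antigen used to sort prostate progenitors, was at 978, 1593 and 806 CPM against 8.36, 18.5 and 17.9, and Ly6e, which is widely expressed, differed less, at 1142, 1559 and 1379 against 540, 383 and 481 CPM.

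The promoters of 3 of the 12 genes are shown, including the only 2 of those found that hold a marked motif. They are the 250 bases before the gene start from RefSeq (GRCm38.p6), which listed 7 of the 12, written 5′ to 3′ on the gene's strand with matches to TGANTCA (the AP-1 motif) or TATAAA (the TATA box) in capitals.
Ivl, chr3:92573736-92573985, minus strand: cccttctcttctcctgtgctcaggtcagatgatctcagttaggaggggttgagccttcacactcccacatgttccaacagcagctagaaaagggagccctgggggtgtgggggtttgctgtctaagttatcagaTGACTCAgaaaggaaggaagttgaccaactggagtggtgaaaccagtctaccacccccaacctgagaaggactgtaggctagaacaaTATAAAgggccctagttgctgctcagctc
Cxcl15, chr5:90794284-90794533, plus strand: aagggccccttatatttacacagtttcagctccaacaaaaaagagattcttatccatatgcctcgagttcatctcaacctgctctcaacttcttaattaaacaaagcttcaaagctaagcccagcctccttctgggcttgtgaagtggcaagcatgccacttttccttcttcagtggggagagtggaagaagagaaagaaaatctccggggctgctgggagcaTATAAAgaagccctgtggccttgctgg
Wfdc2, chr2:164562465-164562714, plus strand: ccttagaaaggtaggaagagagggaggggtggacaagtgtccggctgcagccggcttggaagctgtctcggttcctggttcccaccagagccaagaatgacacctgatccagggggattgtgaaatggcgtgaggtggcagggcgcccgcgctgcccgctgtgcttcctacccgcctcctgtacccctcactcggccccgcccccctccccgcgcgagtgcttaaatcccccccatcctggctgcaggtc
Ivl holds TGANTCA 116 to 110 bases and TATAAA 29 to 24 bases before its start, Cxcl15 holds TATAAA 27 to 22 bases before its start, and Wfdc2 holds neither. Both strands were searched and no matches overlapped. TGANTCA was found in 1 of the 7 promoters and in 6.87% of 27025 promoters of the same length, and TATAAA in 2 of the 7 and in 12.9%. The ETS core GGAAGT was found in 1 of the 7 (Ivl) and in 19.98% of all promoters, and the grainyhead motif AACCNGTT in 0 of the 7 and in 1.67%. Among 9997 promoters of genes tested between the classes, the shares were 4.31% for TGANTCA, 6.58% for TATAAA, 22.9% for GGAAGT and 1.64% for AACCNGTT. A match is a description of the letters in this window.

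Ivl encodes involucrin, a precursor of the cornified envelope, and Wfdc2 a secreted protease inhibitor of the whey acidic protein family. Ivl stood at 399, 198 and 161 CPM in proximal barcodes against 0.691, 0.459 and 0.576 in secretory ones (log2 8.28 ± 0.19). Wfdc2 stood at 1833, 2040 and 1219 CPM against 0.503, 17.6 and 23.1 (log2 7.05 ± 0.75). Of 20 genes listed for proximal identity, 18 were higher and none lower, with a median log2 fold change of 4.94, beside 20.1% higher and 26.1% lower of all genes tested. Ppp1r1b, a regulator of protein phosphatase, was at 158, 336 and 248 CPM against 1.57, 3.99 and 4.46. Cyp2f2, a cytochrome of club-type airway cells, was at 814, 1282 and 1271 CPM against 4.96, 16.1 and 23.0. Clu, a secreted chaperone, was at 3254, 5284 and 3929 CPM against 390, 348 and 323. All 3 were higher in proximal barcodes in every library. The transcription factors Klf5 (590, 879 and 792 against 116, 70.0 and 107 CPM) and Runx1 (408, 516 and 421 against 82.9, 57.6 and 68.2 CPM), both known in epithelial progenitors, were higher as well. Krt19, a simple-epithelium keratin, differed least of the 18, at 3628, 3911 and 2696 against 2356, 1831 and 1917 CPM, and lost the call in 4 of 18 settings, with an adjusted p up to 0.498.

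Calcium-binding proteins were mostly higher as well, and detoxifying ones were mixed. Of all genes tested, 20.1% were higher and 26.1% lower. Of 15 annexin, S100 and galectin genes, 13 were higher and 1 lower (median log2 4.35). S100a6 was at 8582, 5496 and 4701 CPM against 35.4, 36.8 and 75.2, Anxa1, a phospholipid-binding protein with anti-inflammatory action, at 3157, 3678 and 1875 against 11.6, 57.5 and 32.2, and Lgals3 at 3382, 2756 and 1673 against 20.8, 25.8 and 35.1. Of 23 glutathione and redox genes tested, 12 were higher and 5 lower (median log2 0.61). Aldh3a1, an aldehyde dehydrogenase of barrier epithelia, was at 62.6, 57.8 and 86.3 against 0.691, 0.321 and 0.555 CPM, Gsto1 at 1838, 1749 and 1608 against 53.5, 61.6 and 78.1, and Gsta4 at 713, 1280 and 650 against 10.3, 21.2 and 14.6. The peroxidase gene Prdx6 went the other way, at 246, 641 and 1157 against 5617, 6673 and 5388 CPM. Of 13 retinoid genes tested, 11 were higher and 2 lower (median log2 2.68), including the retinoic acid synthase Aldh1a3 (43.2, 18.3 and 19.0 against 0.126, 0.459 and 0.704 CPM) and the receptors Rarb (15.1, 19.5 and 24.5 against 1.82, 1.42 and 2.05) and Rarg (32.4, 53.0 and 53.8 against 6.91, 5.50 and 6.76).

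Chemokines were a further shared feature, with 13 of 18 chemokine and cytokine genes tested higher and 1 lower (median log2 2.84). Of all genes tested, 20.1% were higher and 26.1% lower. Cxcl15, an epithelial chemokine of lung and glands, stood at 292, 160 and 142 CPM against 0.628, 0.917 and 1.24. Cxcl17, a mucosal chemokine, stood at 527, 360 and 215 against 4.59, 6.47 and 6.87, and below 4 CPM in basal barcodes. Cxcl2, which draws neutrophils, stood at 639, 247 and 317 against 7.16, 13.2 and 8.04 but was at 295, 298 and 125 CPM in basal barcodes. The growth factor Areg, a ligand of the EGF receptor, stood at 1471, 767 and 593 against 90.5, 28.4 and 9.96 CPM. Of 9 club and antimicrobial genes tested, 4 were higher (Cd14, Cyp2f2, Pigr and Wfdc2) and 3 lower (median log2 -0.42). Ltf, Slpi and Scgb1a1 of that list were at 0.0, 18.3 and 4.75, at 0.0, 0.0 and 0.791 and at 0 CPM in proximal barcodes.

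The proximal barcodes shared part of their keratin programme with basal cells although Krt5 and Krt14 were limited by the rule. Krt15 stood at 4364, 3252 and 2821 CPM in proximal barcodes, at 2645, 3563 and 1796 in basal ones and at 19.5, 27.4 and 47.2 in secretory ones, so proximal and basal values overlapped. Trp63, the master factor of basal cells, stood at 17.3, 6.09 and 8.70 CPM against 105, 98.7 and 45.9 in basal barcodes, and came from 2, 9 and 7 members. Krt17 stood at 6.48, 2.44 and 17.4 CPM against 1898, 1616 and 1604 in basal barcodes. Of 12 hillock and squamous genes tested, 8 were higher and 2 lower than in secretory barcodes (median log2 2.24), beside 20.1% and 26.1% of all genes tested. Sprr1a, a cornified-envelope protein, was at 3485, 3174 and 2358 CPM against 1650, 872 and 1144, and Krt13, the keratin of squamous hillock cells, at 17.3, 6.70 and 15.8 against 0.565, 0.734 and 0.683. Of the listed genes, Krt6b, Krt16, Sprr1b, Sprr3 and Cnfn had no UMI in the members of any library. Of 8 urothelial genes tested, 7 were higher (median log2 3.15). The uroplakin Upk1a was at 596, 653 and 648 CPM against 107, 117 and 95.8, and Upk1b at 162, 270 and 258 against 93.6, 121 and 132. Upk3a, a defining uroplakin of umbrella cells, had no UMI in the members of the knockout and heterozygote 1 and was at 4.75 CPM in 1 barcode of heterozygote 2.

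Genes of secretion and of luminal differentiation were lower in the proximal class. The 12 named by size were 9530002B09Rik, 9530053A07Rik, Defb1, Spink8, Ms4a5, C1rb, Gm37223, Fgl1, Prdx6, Tcaf3, Pate9 and Cdcp3, with log2 fold changes from -4.22 ± 0.42 to -3.58 ± 0.32. All 12 kept the call in each setting, but where secretory barcodes needed 10% secretory UMIs the log2 values were smaller, at -0.61 for Gm37223, -0.73 for C1rb, -1.03 for 9530053A07Rik, -1.07 for Tcaf3 and Fgl1, -1.15 for Ms4a5 and -1.20 for Pate9. Defb1, a beta-defensin, stood at 84.2, 49.9 and 188 CPM in proximal barcodes against 1689, 1205 and 1026 in secretory ones, and Spink8, a protease inhibitor, at 4.32, 17.7 and 36.4 against 185, 410 and 193. All 15 genes tested of the endoplasmic reticulum stress list were lower (median log2 -2.26), among them the chaperone Hspa5 at 842, 1178 and 1132 against 6585, 5315 and 3225 CPM and its cofactor Sdf2l1 at 10.8, 60.9 and 89.4 against 514.5, 646 and 306. Of 11 luminal transcription factors and receptors, 7 were lower and 2 higher. Of all genes tested, 26.1% were lower and 20.1% higher, which stands beside both lists. The posterior homeobox factor Hoxb13 was at 25.9, 54.8 and 74.4 against 186, 288 and 227 CPM, Spdef, an ETS factor of secretory luminal cells, at 12.96, 5.48 and 6.33 against 24.0, 32.6 and 31.2, and the estrogen receptor Esr1 at 17.3, 15.2 and 25.3 against 96.8, 80.7 and 79.8. One of those that were higher was the pioneer factor Foxa1, at 143, 178 and 256 against 83.5, 99.9 and 150 CPM. Proximal barcodes of all 3 libraries therefore carried more Foxa1 and less Hoxb13 and Esr1 in CPM than the secretory barcodes beside them.

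The members were not uniform in Ly6d. With every barcode thinned to 2000 UMIs, Ly6d had a UMI in 50% (35.5% to 64.5%) of knockout members, in 31.4% (24.9% to 38.5%) of heterozygote 1 and in 20.1% (13.9% to 27.6%) of heterozygote 2, with 0, 0 and 7 shallower members left out. The background was 0.491%, 1.04% and 1.18% in secretory barcodes. Unthinned, the shares in members were 54.0%, 40.8% and 27.8%. The knockout interval overlaps that of heterozygote 1, and no test was made with 1 library against 2. Barcodes with a Ly6d UMI (25, 60 and 29) were then set beside those without (25, 131 and 115) as a description, since the split is by expression. Ivl stood at 800, 833 and 793 CPM with a Ly6d UMI and at 40.0, 87.8 and 34.8 without. Aldh3a1 stood at 140, 167 and 224 with and 20, 38.2 and 52.2 without, and the barrier factor Grhl3 at 40.0, 58.3 and 121 with and 0.0, 7.63 and 8.70 without. Areg, Gsto1, Mal, Upk1a, Krt4, Anxa1 and Krt15 were also higher with Ly6d in all 3 libraries. The opposite order was seen for Clu, at 1560, 1442 and 1138 CPM with Ly6d and 3240, 6214 and 4826 without, and for the surface glycoprotein Cd24a, the class I light chain B2m, the antioxidant Gpx3 and the claudin Cldn10. The largest differences in this direction also included transcripts high in secretory barcodes. Defb50 stood at 200, 183 and 1086 CPM with Ly6d and 1820, 500 and 3113 without, and Tcaf3 at 0.0, 133 and 293 with and 80, 366 and 735 without. 9530002B09Rik had the same order. Whether such RNA came from outside the cells was not tested. The level of Ly6d summed over all members was 853, 838 and 421 CPM, so heterozygote 1 lay near the knockout on that scale.

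**Figure D3:**
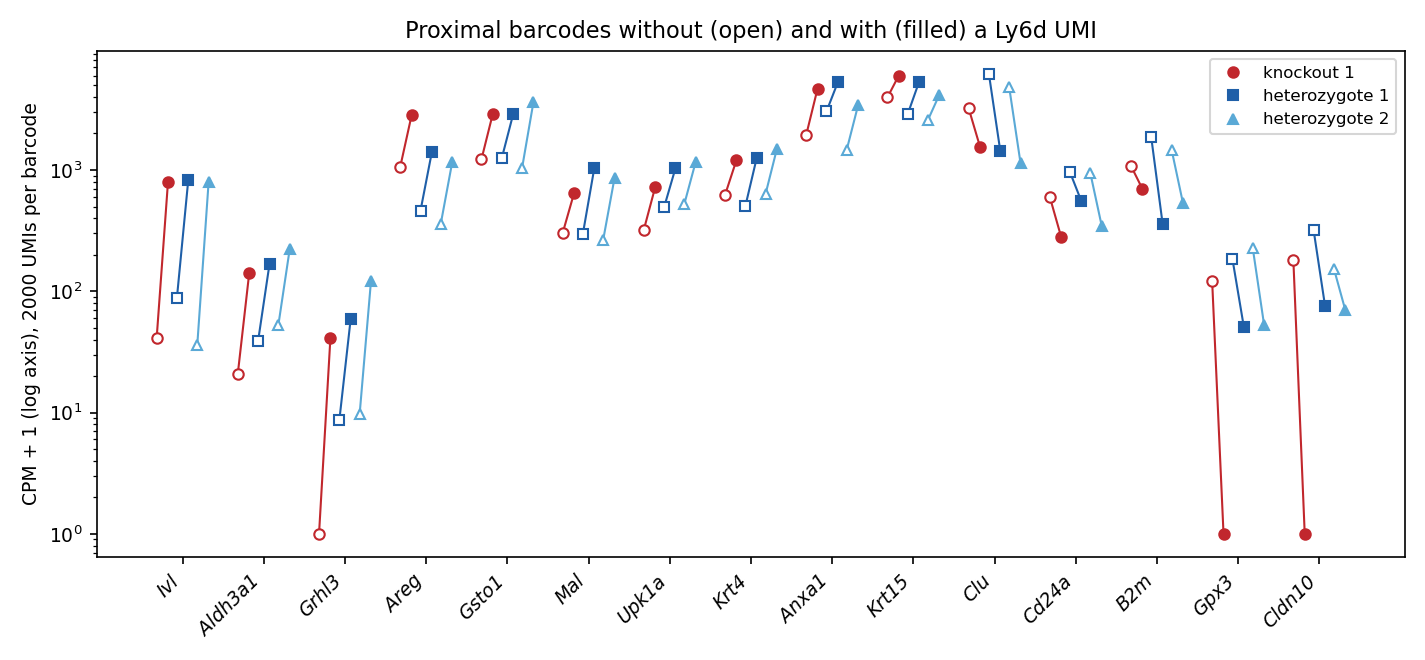
CPM + 1 on a log axis for 15 genes in proximal barcodes thinned to 2000 UMIs, without (open) and with (filled) a Ly6d UMI, joined by library. Ivl is higher in each library with Ly6d (793 to 833 CPM with, 34.8 to 87.8 without), and Clu is lower.

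Between genotypes few genes passed the test in proximal barcodes, which does not show that the other genes were equal. In the knockout, Plat, 4 of 13 heat shock genes, 1 of 16 interferon and antigen presentation genes and the seminal vesicle transcripts Sva and Ceacam10 were higher, while 6 of 14 prostate secretory transcripts were lower. The test was edgeR's quasi-likelihood test on the 3 library sums, 1 against 2, with 1 residual degree of freedom. Its spread was shared over all genes, so a gene whose heterozygotes lie far apart can still pass. Of 9501 genes, 92 passed (0.968%), 47 higher (0.495%) and 45 lower (0.474%) in the knockout, and 702 had an unadjusted p under 0.05. DESeq2 called 4 genes, Sva, Ceacam10, Spink5 and Plat, all higher. In 12 of the 47 genes called higher, over 50% of the knockout's UMIs came from 1 of its 50 barcodes, and in 2 of the 45 called lower 1 barcode held over 50% of the heterozygotes' UMIs. With each member thinned to 2000 UMIs, 26 genes passed, 21 of them among the 92.

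Plat, which encodes tissue plasminogen activator, a secreted protease that turns plasminogen into plasmin, kept its call in every setting that had a test. It stood at 317 CPM in the knockout and at 94.4 and 97.3 CPM in the heterozygotes (log2 1.87 ± 0.33, edgeR adjusted p = 6.09e-06). The heterozygotes were close to each other and the knockout stood apart. Its UMIs came from 26 of 50 knockout members, with 16.3% from the top barcode, and from 58 of 191 and 36 of 151 members of the heterozygotes. Over the alternatives the log2 value ranged from 1.58 to 2.12. Secretory barcodes showed the same order at 82.5, 22.2 and 33.2 CPM. Plat lies at chr8:22757727-22782844 on the plus strand (mm10).

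Sva and Ceacam10, secreted products of the seminal vesicle, had the largest fold changes among the 12 genes named as higher. Sva stood at 203 CPM against 1.22 and 0.0, or 94 UMIs in the knockout and 2 in both heterozygotes together, a ratio of 295 with a 95% counting interval of 79.4 to 2471. Ceacam10 stood at 501 against 7.31 and 8.70 CPM (log2 6.11 ± 0.39). Spinkl, a protease inhibitor-like secreted protein, stood at 250 against 68.2 and 11.9 (log2 2.73 ± 0.34). All 3 were found in nearly every knockout member (43, 48 and 42 of 50), and in basal barcodes they were just as unequal, with Sva at 423, 3.27 and 0.0 CPM, Ceacam10 at 929, 14.4 and 4.54 and Spinkl at 450, 120 and 17.7. Seminal vesicle RNA was thus higher in every gated class of the knockout library, and its part in these calls was not tested.

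Of 13 heat shock genes, 4 were higher and none lower in the knockout, with a median log2 fold change of 1.06 against -0.02 over all genes. The small chaperone Hspb1 stood at 3218 against 1701 and 954 CPM (log2 1.42 ± 0.35, adjusted p = 0.0113) and came from 48 of 50 knockout members. Hspa1a, the inducible Hsp70, stood at 538 against 185 and 298 (log2 1.31 ± 0.34, adjusted p = 0.0168), the mitochondrial chaperone Hspd1 at 287 against 145 and 132 (log2 1.20 ± 0.33, adjusted p = 0.034), and Hsph1, an Hsp70 exchange factor, at 127 against 28.6 and 34.8 (log2 2.16 ± 0.36) with 42.4% of its knockout UMIs in 1 barcode. The knockout lay above both heterozygotes in 11 of the 13 genes, beside 26.8% of all genes tested. Only 1 of the 13 passed with at least 3 Psca and Krt4 UMIs in the gate or with thinned members (Hsph1 and Hspb1), and none by DESeq2 or with under 2 Krt5 and Krt14 UMIs. Of 18 immediate early genes, none passed (median -0.01), beside 0.968% of all genes tested. Whether tissue handling had a part in the heat shock values was not tested.

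Interferon-induced Isg15 stood at 51.8 against 12.8 and 13.5 CPM (log2 2.12 ± 0.47, adjusted p = 0.00185), from 9 of 50 knockout members, and was the only one of 16 interferon and antigen presentation genes to pass. Irf9, a subunit of the interferon-activated factor ISGF3, at 64.8 against 23.7 and 22.9 (log2 1.61 ± 0.41, adjusted p = 0.0152), and Usp18, which removes Isg15 from proteins, at 32.4 against 7.31 and 6.33 (log2 2.36 ± 0.64, adjusted p = 0.0272), were picked after their values were seen. In all 3 the knockout stood above both heterozygotes, as it did in all 47 genes called higher. Over all genes tested that share was 26.8%. Ly6k, of the same family as Psca, was higher at 86.4 against 31.7 and 23.7 CPM (log2 1.77 ± 0.38, adjusted p = 0.00161), as were the guidance factor Sema3e at 54.0 against 4.87 and 9.5 (log2 3.08 ± 0.52), Fstl4 at 58.3 against 17.7 and 15.8 (log2 1.93 ± 0.44) and the unnamed transcript Gm45267 at 60.5 against 23.1 and 10.3 (log2 1.95 ± 0.43). F3, tissue factor, which starts coagulation, was also picked after its values were seen, at 499 against 238 and 165 CPM (log2 1.45 ± 0.33, adjusted p = 0.00395). The sterol enzyme gene Sc5d was higher at 60.5 against 18.3 and 23.7 (log2 1.68 ± 0.42, adjusted p = 0.0126), the only one of 21 cholesterol genes to pass. Malat1 and Rrp1b, 2 of 3 genes tested of a list set up for nuclear RNA, were higher too. They stood at 31808 against 20758 and 8361 CPM and at 279 against 138 and 134. Malat1 lost the call in 4 settings and Rrp1b in 5, DESeq2 among them. The nuclear RNA Neat1 went the other way, with log2 differences of -1.04 from heterozygote 2 and -0.03 from heterozygote 1. Rrp1b was highest in the knockout in secretory barcodes too (756, 277 and 300).

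Several genes called higher rested on single cells of the knockout. Spink5, a skin protease inhibitor, stood at 1045 against 179 and 123 CPM (log2 2.93 ± 0.34), but 99.0% of its knockout UMIs came from 1 of 50 members. With at least 10 Psca and Krt4 UMIs (0.2% or more) in the gate the sign turned, to a fitted log2 value of -10.09. Reg3b, an antimicrobial lectin, came from 1 barcode only and its sign turned under 2 settings. Of 15 chemokine and cytokine genes tested 2 passed, both higher: Cxcl2 at 639 against 247 and 317 CPM with 57.8% of its knockout UMIs in 1 barcode, and Cxcl5 at 25.9 against 1.83 and 2.37 with 91.7% in 1 barcode. Ivl at 399 against 198 and 161 had 58.4% in 1 barcode. With members thinned, none of the chemokine genes and not Ivl passed. Areg was spread over 31 of 50 members with 17.8% in the top one, at 1471 against 767 and 593 CPM (log2 1.26 ± 0.36, adjusted p = 0.045), but it lost the call in 7 of 15 settings that had a test, with an adjusted p up to 0.337, among them DESeq2 and members under 1% secretory UMIs.

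Some prostate secretory transcripts were lower in the knockout's proximal barcodes. Of 14 genes tested of the secretory list, 6 were lower and none higher (median log2 -1.79). The median was -0.89 without heterozygote 2, only Sbp passed with under 2 Krt5 and Krt14 UMIs, and none passed by DESeq2. Sbp, the spermine-binding protein, stood at 212 against 1037 and 3714 CPM (log2 -3.33 ± 0.45), Pbsn, probasin, at 510 against 1706 and 4876 (log2 -2.54 ± 0.42), and the transglutaminase Tgm4 at 285 against 1323 and 3592 (log2 -2.95 ± 0.44). Msmb, a secreted microseminoprotein, at 34.6 against 69.4 and 1544, and Ren1, renin, at 32.4 against 140 and 811, rested largely on heterozygote 2. Without that library the log2 differences were -0.83 for Msmb, -1.91 for Ren1, -2.14 for Sbp, -2.06 for Tgm4 and -1.60 for Pbsn. The basal barcodes had the same order for Sbp (169, 1274 and 3071 CPM), Pbsn (1096, 1844 and 4434), Tgm4 (633, 1342 and 2707), Msmb (69.8, 142 and 523) and Ren1 (127, 273 and 638). In secretory barcodes the whole list summed to 75832, 145779 and 111032 CPM, again lowest in the knockout, with Sbp at 13908, 61813 and 28720, Tgm4 at 12214, 13617 and 17054, Ren1 at 2625, 3309 and 3054, Msmb at 6044, 6719 and 6496 and Pbsn at 20398, 19018 and 22220. Among members with under 1% of UMIs from the list, 49, 167 and 88 barcodes, 1 of 13 genes of the list passed (Sbp, log2 -1.77) and the median was -0.79. That limit was set after the data were seen, and the part of RNA from outside the cells was not tested. Of all 45 genes called lower, 25 were also higher in secretory than in proximal barcodes, beside 26.1% of genes tested between the classes. Another 6 of the 45 were read by the secretory gate. Tcaf3 (34.6 against 259 and 784 CPM) and Ms4a5 (6.48 against 79.2 and 134) were of the first kind, as were Ace (2.16 against 20.7 and 43.5), Sdf2l1 (10.8 against 60.9 and 89.4) and Prdx6 (246 against 641 and 1157). Of the 47 genes called higher, 27 were also higher in proximal than in secretory barcodes, beside 20.1% of genes tested between the classes.

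Some lower genes were not secretory ones, and most had low counts. Gstp2, Grp and Gsta3 were higher in proximal than in secretory barcodes. Gstp2, a glutathione transferase, had 2 UMIs in the knockout, or 4.32 CPM, against 59.1 and 23.7 CPM, 10.1-fold lower with a 95% counting interval of 2.74 to 84.5. Grp, gastrin-releasing peptide, had 1 UMI, or 2.16 CPM, against 31.7 and 27.7, 13.9-fold lower (2.42 to 554). Few heterozygote members held these RNAs: Grp came from 14 of 342, with 29.9% of its UMIs in 1 barcode, and Gstp2 from 37. The counting intervals do not cover that spread between cells. The cystine transporter gene Slc7a11 had 0 UMIs in the knockout against 25.6 and 24.5 CPM, at least 3.88-fold lower against a floor of 3 UMIs. The glutathione transferase Gsta3 stood at 56.1 against 198 and 150 (log2 -1.49 ± 0.41, adjusted p = 0.0335), and lost the call in 8 of 15 settings that had a test, with an adjusted p up to 0.849. Ptprt, a receptor phosphatase (1 UMI, 17.2-fold lower, 3.02 to 686), and 1810026B05Rik (2 UMIs, 10.2-fold lower, 2.77 to 85.1) were also lower. Akap12 (1 UMI in the knockout) had 91.2% of its heterozygote 2 UMIs in 1 barcode.

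**Figure D4:**
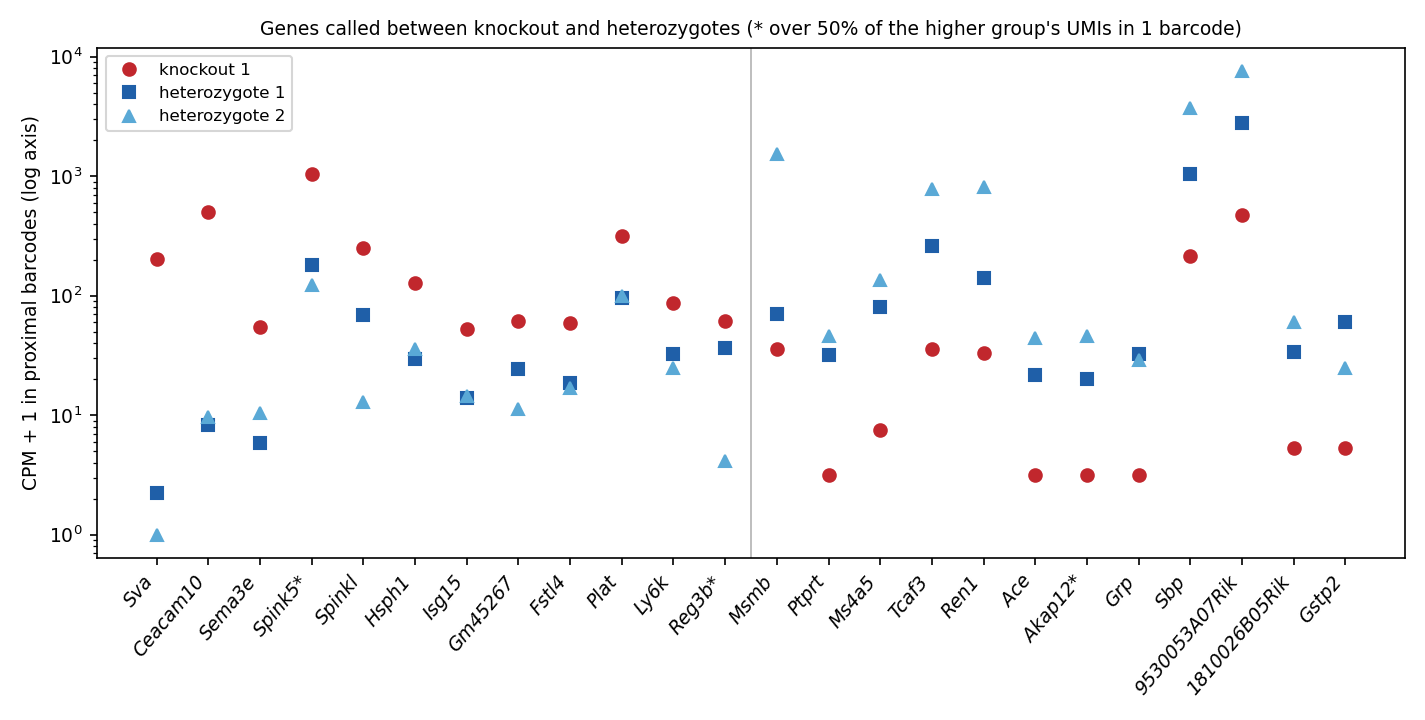
CPM + 1 on a log axis in proximal barcodes for the 12 genes named as higher (left) and the 12 named as lower (right) in the knockout, one point per library. An asterisk marks genes with over 50% of the higher group's UMIs in 1 barcode. Plat, Fstl4 and Isg15 show the heterozygotes close together, and for Msmb heterozygote 1 lies near the knockout.

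Few genes passed the test between genotypes, among those of proximal identity as over all genes. Of 20 genes of proximal identity, 1 passed (Areg, above) and 19 did not, beside 0.968% of all genes tested. Their median log2 fold change was 0.16. Values were 0.58 ± 0.36 for Ly6d, 0.34 ± 0.36 for Krt7, -0.36 ± 0.36 for Clu, -0.75 ± 0.37 for Ppp1r1b and 0.92 ± 0.35 for Nupr1, a stress-induced chromatin protein, with edgeR adjusted p-values of 0.34 or more. Krt15 was at 4364, 3252 and 2821 CPM (log2 0.67 ± 0.35). None of 8 luminal factors, 18 androgen-responsive genes, 8 urothelial genes, 11 keratins, 16 junction genes, 11 retinoid genes or 17 progenitor genes tested passed. With 0.968% of all genes passing, no call in lists of these sizes is near that share. Of 15 endoplasmic reticulum stress genes the knockout lay below both heterozygotes in all 15, beside 47.5% of all genes tested, but only Sdf2l1 passed. Among members with under 1% of UMIs from the prostate secretory list the median of 14 such genes was -0.06 and none passed. A p above the threshold with 1 library against 2 does not show that these levels were equal.

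Whether a genotype difference was the same in proximal and secretory barcodes was tested by the class by genotype term over the 6 sums. Of 12918 genes, 101 passed (0.782%), 65 with a higher (0.503%) and 36 with a lower (0.279%) knockout difference in proximal than in secretory barcodes, and 883 had an unadjusted p under 0.05. With secretory genes left out of the totals 75 passed, 53.3% of them higher in place of 64.4%, and the median over all genes moved from -0.07 to -0.20. Nupr1 kept its call in each setting tested. It stood at 4638, 3281 and 2130 CPM in proximal barcodes and at 85.6, 971 and 685 in secretory ones, a term of 4.16 ± 0.32 on the log2 scale (adjusted p = 1.08e-14). Wfdc2 stood at 1833, 2040 and 1219 against 0.503, 17.6 and 23.1 (5.62 ± 0.44), Igfbp7, a secreted binding protein of insulin-like growth factors, at 261, 639 and 463 against 6.60, 78.9 and 65.6 (2.48 ± 0.29), and the carbonyl reductase Cbr2 at 1585, 1624 and 1185 against 22.1, 143 and 72.2 (2.49 ± 0.30). Krt7 (2.32 ± 0.33), Anxa1 (2.25 ± 0.31) and Ly6d (2.01 ± 0.36) had the same form. In each of these 7 genes the knockout's secretory barcodes were below those of both heterozygotes. A low knockout value there raises the term, so this order follows in part from the choice of genes with a positive term. The knockout's proximal barcodes were above both for Nupr1, Ly6d and Krt7, below both for Igfbp7 and between them for Wfdc2, Cbr2 and Anxa1. Wfdc2, Igfbp7, Cbr2 and Ly6d lost the call where secretory barcodes needed 10% secretory UMIs, and Ly6d lost it in 6 settings, Krt7 in 2 and Anxa1 in 1 of 15 that had a test. Psca, which the gate limits in secretory barcodes, was also lowest in the knockout there, at 0.942, 5.83 and 7.25 CPM, and the part of proximal RNA in secretory barcodes was not tested. Basal barcodes held more Wfdc2 (44.3, 63.4 and 36.8 CPM) and Krt7 (86.4, 88.9 and 40.9) than secretory ones, and were not used to test that part.

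The other genes named by the size of the term had less behind them. Gsdmc2 and Gsdmc3 had 0 UMIs in the knockout's secretory barcodes, so their terms rest on the heterozygotes' 0.459 to 0.704 CPM there. Scel, a cornified-envelope protein, stood at 149, 87.1 and 71.2 CPM in proximal and 0.314, 1.06 and 1.19 in secretory barcodes (2.85 ± 0.63), and Spink5 rests on the 1 barcode described above. On the lower side Slc7a11, Tns1 and Flrt3 had 0 UMIs in the knockout's proximal barcodes, and Sox5 and Ace had 1 each. Ms4a5 stood at 6.48, 79.2 and 134 CPM in proximal barcodes and at 1118, 991 and 634 in secretory ones (-4.40 ± 0.62, adjusted p = 3.27e-06).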

How the data were processed

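The data were raw UMI counts per gene and barcode, deposited by the authors as 10x matrices for 3 libraries. The submitters' processing notes name Cell Ranger 3.1.0 and mm10; for chemistry and cell calling nothing is given in the sources used here. Groups follow the genotype labels, and heterozygote numbers only name libraries. Proximal barcodes were gated as in the report. Secretory luminal barcodes (1026, 1931 and 4024) passed the same limits on genes, mitochondrial and Svs UMIs and on Krt5 and Krt14, and had under 5 Psca and Krt4 UMIs, at least 5 Krt8 and Krt18 UMIs (0.1% or more), at least 2% of UMIs from the prostate secretory list and under 5 UMIs of Vim, Ptprc, Col1a2, Pecam1 and Acta2. Basal barcodes (985, 392 and 567) had 5 or more Krt5 and Krt14 UMIs. No doublet caller was run: the limits on Svs, Krt5 and Krt14 UMIs and an alternative without barcodes holding 3 or more UMIs of other lineages' markers stand in for it. UMIs were summed per library and class, filtered with filterByExpr, scaled with TMM and tested in edgeR 4.0.16 (R 4.3.3), with p-values over all genes adjusted by Benjamini-Hochberg (threshold 0.05). DESeq2 1.42.0 was an alternative. Levels are plain CPM, scaled to the class total of a library, with no correction for transcript length. The log2 fold changes come from the TMM-scaled fit. Gate genes and mitochondrial genes were not tested. The scripts were tested on simulated data.

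Genes were named by a rule: per direction, the 12 largest changes by genotype (mean of at least 20 CPM, knockout outside both heterozygotes) and by class (at least 50 CPM in the higher class in every library), the 6 largest interaction terms (mean of at least 20 CPM), and members of 35 gene lists. The members, lists and rules were chosen with earlier results of these data known. Of 32594 gene identifiers 31952 were found in GENCODE vM21.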

Additional observations from a re-analysis of the deposited data

Results flagged for a closer look

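The class by genotype term passed the threshold (edgeR's quasi-likelihood test, adjusted p under 0.05) for 17 named genes as fitted in the report. The log2 terms, positive where the knockout difference was higher in proximal barcodes, were 6.34 for Gsdmc2, 6.25 for Gsdmc3, 5.62 for Wfdc2, 4.602 for Spink5, 4.16 for Nupr1, 2.85 for Scel, 2.49 for Cbr2, 2.48 for Igfbp7, 2.32 for Krt7, 2.25 for Anxa1 and 2.01 for Ly6d. They were negative for Slc7a11 (-11.82), Tns1 (-11.06), Flrt3 (-10.92), Ms4a5 (-4.40), Sox5 (-4.15) and Ace (-3.63). The terms of Gsdmc2, Gsdmc3, Slc7a11, Tns1 and Flrt3 depend on the prior count, since 1 knockout sum holds 0 UMIs, and are no measure of size. Of 15 settings with a test, the call was lost in 12 for Ace, in 11 for Gsdmc2 and Gsdmc3, in 9 for Scel, Sox5, Slc7a11, Tns1 and Flrt3, in 8 for Ms4a5, in 6 for Ly6d, in 2 for Wfdc2, Cbr2 and Krt7 and in 1 for Igfbp7 and Anxa1. It was lost in none for Nupr1, and Spink5 turned sign in 1.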

How the results depend on the processing

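No paired analysis was possible because the knockout has 1 library and the heterozygote numbers only name samples. The 92 genes called by genotype were 4 by DESeq2, 45 with at least 3 Psca and Krt4 UMIs, 6 with under 2 Krt5 and Krt14 UMIs and, in settings chosen after seeing the data, 60 among members under 1% prostate secretory UMIs and 26 with thinned members. The other settings gave 66 to 94. The 101 genes of the class by genotype term were 16 by DESeq2, 3 at a mean of at least 20 CPM, 66 with at least 3 and 30 with at least 10 Psca and Krt4 UMIs, 42 with both genes required, 12 at 10% mitochondrial UMIs, 13 at 5% Svs UMIs, 13 at the depth of heterozygote 1, 14 without other-lineage barcodes, 32 with a stricter secretory gate and 60 among members under 1% secretory UMIs. The class count of 5972 was 3405 at a mean of at least 20 CPM, where fewer genes were tested, and 4237 to 5840 with 1 library left out. The share of proximal barcodes was 3.29% (heterozygote 1) and 0.935% (heterozygote 2) with at least 10 Psca and Krt4 UMIs, and 3.16% and 1.20% with both genes required. In heterozygote 2 it was 1.79% at the depth of heterozygote 1, 1.74% at 1000 genes and 0.831% among members under 1% secretory UMIs, and the knockout stayed lowest in each on this base, though not among gated epithelial barcodes under 1% secretory UMIs (2.36% against 1.87% in heterozygote 2). The Ly6d share in the knockout was 32.0% at 1000 UMIs, a depth at which the heterozygote shares are not given here. Shares in the heterozygotes were 40.8% and 27.8% unthinned, so they are not to be set beside that knockout value. Where all libraries were read at the same setting, unthinned or at the main thinning of the report, the knockout share was the highest. Values that turned sign were Spink5 by genotype (-10.09) and in the class by genotype term (-12.07) at 10 UMIs, and Reg3b at under 2 Krt5 and Krt14 UMIs (-7.42) and with thinned members (-0.18). The cause was not tested. With 50 knockout barcodes, 1 UMI is over 2 CPM, which limits low genes.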
